A study of Mus musculus with 16 samples.

Results

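Doxorubicin was set directly against interleukin-1 beta (IL-1β) in primary mouse articular chondrocytes, the matrix-making cells of joint cartilage. The 4 doxorubicin and the 4 IL-1β libraries were compared, 8 of the 16 libraries of the series, and a gene was tested where 4 or more of the 8 reached 1 FPKM, which kept 12545 of 55450 listed genes. FPKM is the number of sequenced fragments per kilobase of gene, scaled to the library's depth, as the authors computed it. Doxorubicin was given at 50 nM over 5 days and renewed with the medium at 48 h intervals. IL-1β was given at 1 ng/mL over 24 h and served the study as an acute inflammatory stress. The 4 vehicle libraries, from cells that received saline over 24 h, are given as a further level and enter no test. That is the exposure time of IL-1β, so vehicle is not a time-matched level for doxorubicin. Every culture had 3% oxygen and DMEM that held 10% serum. The agents were applied over different times, so agent and exposure time cannot be told apart. The labels do not say that replicates were separate cultures or animals, so p-values measure only the spread between these samples.

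Doxorubicin inserts into DNA and traps topoisomerase II on it, which leaves strand breaks that activate p53 and stop the cell cycle; damaged cells can also switch on interferon genes through sensors of nucleic acids. IL-1β binds its receptor on chondrocytes and signals through MyD88 and IRAK kinases to NF-kB, which turns on chemokines, acute-phase proteins, nitric oxide synthase and collagen-degrading proteases. In cartilage the cytokine is best known for lowering the synthesis of type II collagen and aggrecan.

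Of the 12545 genes, 2920 were higher in doxorubicin than in IL-1β cells (23.3%) and 3560 were lower (28.4%), at an adjusted p under 0.05 in limma with Benjamini-Hochberg adjustment, 51.7% in either direction. A difference of at least 2-fold was also reached by 7.92% of genes, 493 higher (3.93%) and 500 lower (3.99%). The 4 and 4 values did not overlap for 2777 higher genes (22.1%) and 3283 lower genes (26.2%). Every count of list members below is to be read against these shares, unless another scaling is named with it. Members that passed the filter only through the group where they were high had to differ. They are named or counted with a list, or named under the processing. Correlations over the tested genes were 0.985 to 0.99 within a group and 0.926 to 0.937 between groups, and the first principal component held 76% of the variance. Depth, estimated from the step between low FPKM values, was 17 to 21.6 M fragments (M for mega) per doxorubicin library and 16.8 to 17.4 M per IL-1β library. The FPKM sums were 408316 to 421329 in doxorubicin and 521294 to 559190 in IL-1β libraries, of which Saa3 alone took 0.194% to 0.63% and 12% to 14.4% of the sums in these groups. Scaling every library to the same sum therefore moved the log2 difference of the genes by a median of 0.37, and their median was then 0.315 instead of -0.035; 81.8% of the called genes were higher in doxorubicin with it, and 45.1% without it. Under this same-sum scaling 6606 of the 12545 genes were higher and 1465 lower, and list counts given with it are to be read against these. Calls of named genes that change under it are given beside them.

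**Figure D1:**
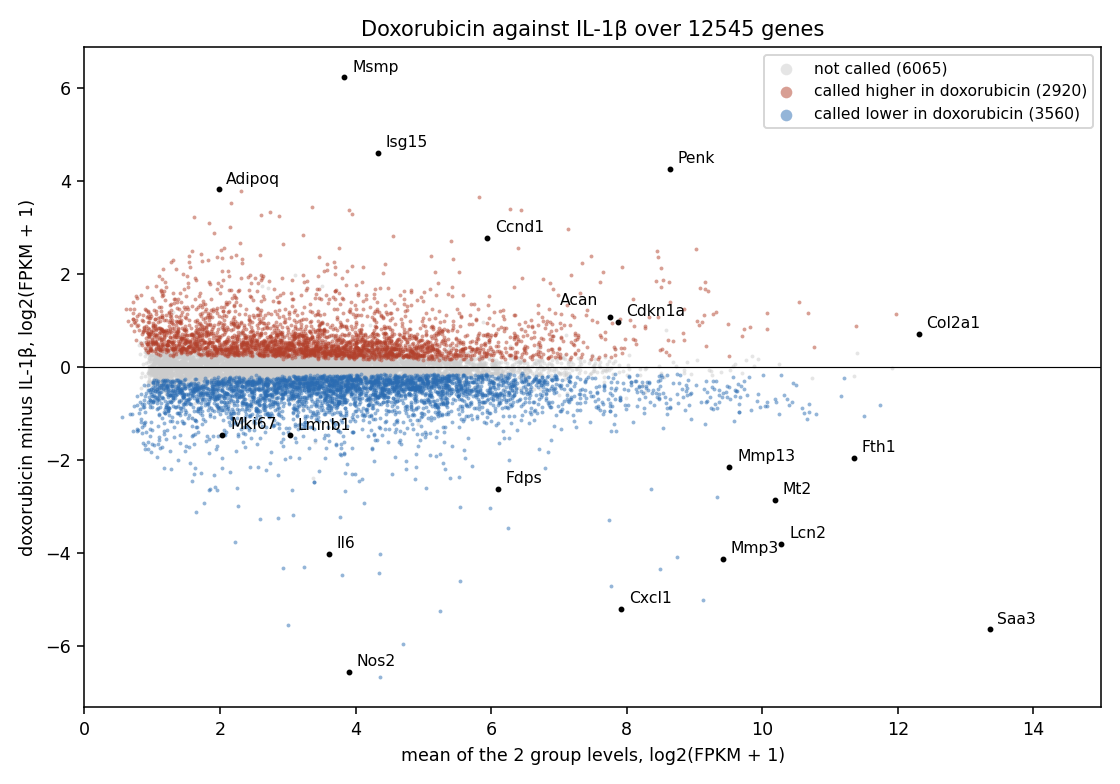
Log2 difference, doxorubicin minus IL-1β, against the mean level of each of the 12545 tested genes, both on the log2(FPKM + 1) scale, 1 point per gene. Red and blue points passed an adjusted p under 0.05; Msmp, Isg15 and Penk stand at the top, and Saa2 and Nos2 at the bottom, with Saa3 the most abundant gene on the plot.

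By Col2a1 the culture carried its label in both groups. Col2a1, the gene of type II collagen, had 6208, 6779, 7388 and 5605 FPKM in doxorubicin and 3893, 3914, 4191 and 3889 FPKM in IL-1β libraries. Among defining markers of other cells, Adgre1 and Itgam of macrophages stayed at or below 0.0384 FPKM in every one of the 8 libraries, Cdh5 of endothelium at or below 0.145 FPKM, and Csf3r of neutrophils at or below 0.0173 FPKM. Other members of these lists were present. Cd14 had 4.63 to 5.93 FPKM in doxorubicin and 12.9 to 18.2 FPKM in IL-1β libraries, and Cd68 2.83 to 4.46 and 6.18 to 9.34 FPKM. Lyz2 had 10.1 to 12.4 and 5.71 to 7.38 FPKM, and endothelial Eng 15.9 to 19.6 and 13.6 to 16.7 FPKM. Camp and S100a8 of the neutrophil list are taken up below. Whether other cells were present was not tested.

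NF-kB genes were lower in doxorubicin cells. Of 17 tested subunits and feedback inhibitors, 14 were lower, 0 were higher and 3 did not pass, with a median log2 difference of -0.81. Nfkbia encodes the inhibitor IkB-alpha, which NF-kB itself induces. It had 17.8, 16.5, 15.2 and 21 FPKM in doxorubicin, against 86.8, 79.4, 87.6 and 84.3 FPKM in IL-1β and 16.2 ± 2.61 FPKM in vehicle libraries (SD, n = 4). The doxorubicin libraries lay near the vehicle level and far under the IL-1β libraries, a 4.79-fold difference (log2 difference -2.21, SE 0.09, adjusted p = 6e-08). Zc3h12a, an RNase that degrades cytokine messages, was 8.84-fold lower, and Nfkbiz, a nuclear IkB protein that helps switch on secondary genes, was 3.85-fold lower. The 3 that did not pass were the subunits Rela (log2 difference 0.20, 95% interval 0.01 to 0.39) and Rel (-0.07, -0.27 to 0.13) and the adaptor Tnip2 (-0.03, -0.27 to 0.20). With same-sum scaling Rela and Tnip2 were higher, at 0.58 and 0.32, and 13 members lower.

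The CXC chemokines separated in 2 directions. Cxcl1, Cxcl2, Cxcl3 and Cxcl5, which draw neutrophils, were lower in doxorubicin, as were Cxcl10 and Cxcl16, while Cxcl12 and Cxcl14 were higher; all 8 tested members passed, although Cxcl16 did not with same-sum scaling. Cxcl1 had 33, 30.8, 32.5 and 61.7 FPKM in doxorubicin, against 1392, 1462, 1381 and 1517 FPKM in IL-1β and 38.5 ± 13.5 FPKM in vehicle libraries. No doxorubicin library came near an IL-1β library, and 3 of the 4 were below the vehicle mean (36.4-fold lower, log2 difference -5.21, SE 0.19, adjusted p = 3.25e-08). Cxcl12, which holds cells that carry the receptor CXCR4, had 37.9, 36.5, 52.5 and 64.1 FPKM in doxorubicin, against 20.9, 18.6, 24.7 and 26.5 FPKM in IL-1β libraries. The groups did not overlap, and the difference was 2.11-fold higher (log2 difference 1.02, adjusted p = 0.000919).

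Of 8 tested CC chemokines and Cx3cl1, 7 were lower in doxorubicin and Ccl25 did not pass, at a median of -1.69. Ccl2, which draws monocytes, had 72.8, 59.9, 73.7 and 112 FPKM in doxorubicin, against 1601, 1705, 1668 and 1489 FPKM in IL-1β and 49.2 ± 13 FPKM in vehicle libraries. The doxorubicin libraries, the fourth of them highest, stood 20.3-fold below the IL-1β libraries (log2 difference -4.36, SE 0.16, adjusted p = 3.3e-08). Ccl20 was 32.5-fold and Ccl7 9.68-fold lower.

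The promoters of Cxcl1 and Cxcl2 are shown because, among the inflammatory lists, they had the largest differences of the genes whose single listed promoter held an NF-kB motif, searched on both strands as GGANTTTCC or GGGANTTCC with overlapping matches counted. They come from RefSeq (GRCm38.p6), run 5′ to 3′ from 250 bases before to 50 bases after the start, and lie at chr5:90890995-90891294 and chr5:90903649-90903948, both on the plus strand. Capitals mark the motif, which begins at -70 and -96 from the start.
Cxcl1: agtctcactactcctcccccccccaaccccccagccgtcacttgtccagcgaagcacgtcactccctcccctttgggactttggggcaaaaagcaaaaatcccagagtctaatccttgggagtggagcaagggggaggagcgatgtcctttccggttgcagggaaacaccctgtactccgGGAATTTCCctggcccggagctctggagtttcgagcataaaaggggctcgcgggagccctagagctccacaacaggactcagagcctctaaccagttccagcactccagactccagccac
Cxcl2: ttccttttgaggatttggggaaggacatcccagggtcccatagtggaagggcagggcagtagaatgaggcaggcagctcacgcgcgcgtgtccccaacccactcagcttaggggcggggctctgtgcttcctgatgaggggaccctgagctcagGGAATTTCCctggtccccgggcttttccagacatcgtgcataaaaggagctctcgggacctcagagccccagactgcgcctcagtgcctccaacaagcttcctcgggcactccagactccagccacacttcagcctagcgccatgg
Both held the same 9 letters, GGAATTTCC. The motif was in 4 of 6 promoters of the CXC chemokines found in the table (66.7%) and in 9 of 17 promoters of the NF-kB list (52.9%), but in 1 of 8 of the CC chemokines (12.5%) and 1 of 12 of the acute-phase genes (8.33%). It was in 7.16% of the promoters of genes at least 2-fold lower in doxorubicin, in 4.29% of those at least 2-fold higher and in 3.63% of those of all tested genes. A match is a description of the letters; the table held promoters for 9435 of the tested symbols.

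Il6, the cytokine that drives the acute-phase response, had 2.11, 1.64, 1.31 and 3.17 FPKM in doxorubicin, against 47.6, 44.1, 51.2 and 46.2 FPKM in IL-1β and 2.08 ± 0.928 FPKM in vehicle libraries. Doxorubicin and vehicle libraries overlapped, and doxorubicin libraries lay 23-fold below IL-1β libraries (log2 difference -4.02, SE 0.16, adjusted p = 4.79e-08). Among 15 cytokines and colony-stimulating factors 6 were lower, 4 higher and 5 did not pass, with a median of -0.11 that turned to 0.17 when libraries were scaled to the same sum. Lif, a cytokine of the Il6 family, was 3.51-fold lower, and Tnfsf11, the ligand that matures osteoclasts, was 2.94-fold lower. The macrophage growth factor Csf1 went the other way, with 144, 146, 161 and 165 FPKM in doxorubicin, against 73.2, 63.9, 66.8 and 71.1 FPKM in IL-1β libraries (2.24-fold higher, adjusted p = 6.34e-07). Il1rn, the natural antagonist of the IL-1 receptor, was also higher, with 16.7, 14.3, 12.6 and 22 FPKM in doxorubicin, against 4.21, 3.03, 6.99 and 3.63 FPKM in IL-1β libraries. The vehicle libraries averaged 16.9 ± 9.55 FPKM, so the low side of this 3.68-fold difference was the IL-1β group.

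In the receptor system of IL-1 and the Toll-like receptors, 8 of 18 tested members were lower, 3 were higher and 7 did not pass, and the median of -0.25 turned to 0.10 when libraries were scaled to the same sum. Tlr2, the receptor for bacterial lipoproteins, was 5.92-fold lower, and Irak3, a brake on IL-1 and Toll-like receptor signalling, was 5.68-fold lower. The receptor gene Il1r1 had 19.5, 18, 19.3 and 19.5 FPKM in doxorubicin, against 31.1, 26.5, 22.4 and 26.3 FPKM in IL-1β libraries (log2 difference -0.45, adjusted p = 0.00218), a call lost with same-sum scaling (-0.09). Tlr3, a sensor of double-stranded RNA, was 2.35-fold higher (adjusted p = 0.00525). Tlr4, the receptor for endotoxin, could not be placed, since its libraries spread between 2.85 and 11.3 FPKM in doxorubicin and between 2.03 and 12.7 FPKM in IL-1β (95% interval of the log2 difference -1.49 to 0.89).

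Acute-phase and antimicrobial genes lay far apart between the groups. Of 14 tested members, 13 were lower in doxorubicin, 12 of them at least 2-fold, and Lrg1 was higher; the median log2 difference was -3.23. Saa3, an acute-phase apolipoprotein (chr7:46711998-46715700 in GRCm38, minus strand), had 1313, 790, 1415 and 2654 FPKM in doxorubicin, against 69450, 71601, 80249 and 62509 FPKM in IL-1β and 156 ± 71.2 FPKM in vehicle libraries. All 4 doxorubicin libraries lay between the vehicle mean and the IL-1β libraries, 46-fold below IL-1β (log2 difference -5.65, SE 0.29, adjusted p = 2.59e-07). Lcn2, a siderophore-binding protein that keeps iron from bacteria, had 279, 226, 275 and 580 FPKM in doxorubicin, against 4177, 3690, 5539 and 4764 FPKM in IL-1β and 78.4 ± 37.5 FPKM in vehicle libraries. Again the doxorubicin libraries were intermediate, 13.4-fold below IL-1β (log2 difference -3.82, adjusted p = 1.55e-06). Saa1 and Saa2, close copies whose reads the counting could share, were 84-fold and 198-fold lower, and the haemoglobin scavenger Hp was 26.3-fold lower.

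One doxorubicin library stood above the other three in these genes. Replicate 4 had the highest doxorubicin value in 12 of the 13 lower acute-phase genes, 6 of the 6 lower CXC chemokines and 11 of the 14 lower NF-kB genes, compared with 4004 of all 12545 tested genes (31.9%). Without it the counts of lower members were 13, 6 and 14 in these 3 lists. Why this library was higher was not tested.

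Nitric oxide and prostaglandin E2 genes were mostly lower, 9 of 14, with 3 higher, 2 not passed and a median of -0.45. With same-sum scaling 6 were lower and 4 higher, at a median of -0.14. The receptor gene Ptger1 passed the filter only through doxorubicin and so had to be higher. Nos2, the inducible nitric oxide synthase (chr11:78920787-78960254, plus strand), had 0.351, 0.345, 0.404 and 1.06 FPKM in doxorubicin, against 122, 162, 159 and 133 FPKM in IL-1β and 0.287 ± 0.323 FPKM in vehicle libraries. Doxorubicin and vehicle cells hardly carried the message, and the difference was 267-fold (log2 difference -6.57, SE 0.15, adjusted p = 2.2e-09). Gch1, which makes the cofactor of nitric oxide synthase, was 5.54-fold lower, and Arg2, an arginase that draws on the same substrate, was 59.3-fold lower; Arg2 passed the filter only through IL-1β libraries, so it had to be lower. Ptgs2, the inducible cyclooxygenase, had 6.11, 6.27, 5.21 and 5.55 FPKM in doxorubicin, against 21, 24.4, 14.8 and 15.6 FPKM in IL-1β libraries, with vehicle between them at 10.3 ± 2.26 FPKM. It was 3.28-fold lower (adjusted p = 1.53e-05), and Ptges, the next enzyme towards prostaglandin E2, was 2.84-fold lower. Hpgd, which breaks prostaglandins down, was 7.44-fold higher, with 10.4, 9.76, 9.74 and 9.47 FPKM in doxorubicin, against 1.69, 0.978, 1.23 and 1.39 FPKM in IL-1β libraries.

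Of 14 complement genes 6 were higher, 6 lower and 2 not passed, and with same-sum scaling 7 were higher and 3 lower. The central component C3 was 2.63-fold lower and Cfb, of the alternative pathway, 3.04-fold lower, whereas the regulator Cd55 was 4.69-fold higher. C3 had 39.8, 37.2, 40.7 and 58.5 FPKM in doxorubicin, against 108, 109, 128 and 118 FPKM in IL-1β and a vehicle mean of 6.6 FPKM, so both treated groups were above vehicle. Masp1, a protease of the lectin pathway, was 3.32-fold higher.

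**Figure D2:**
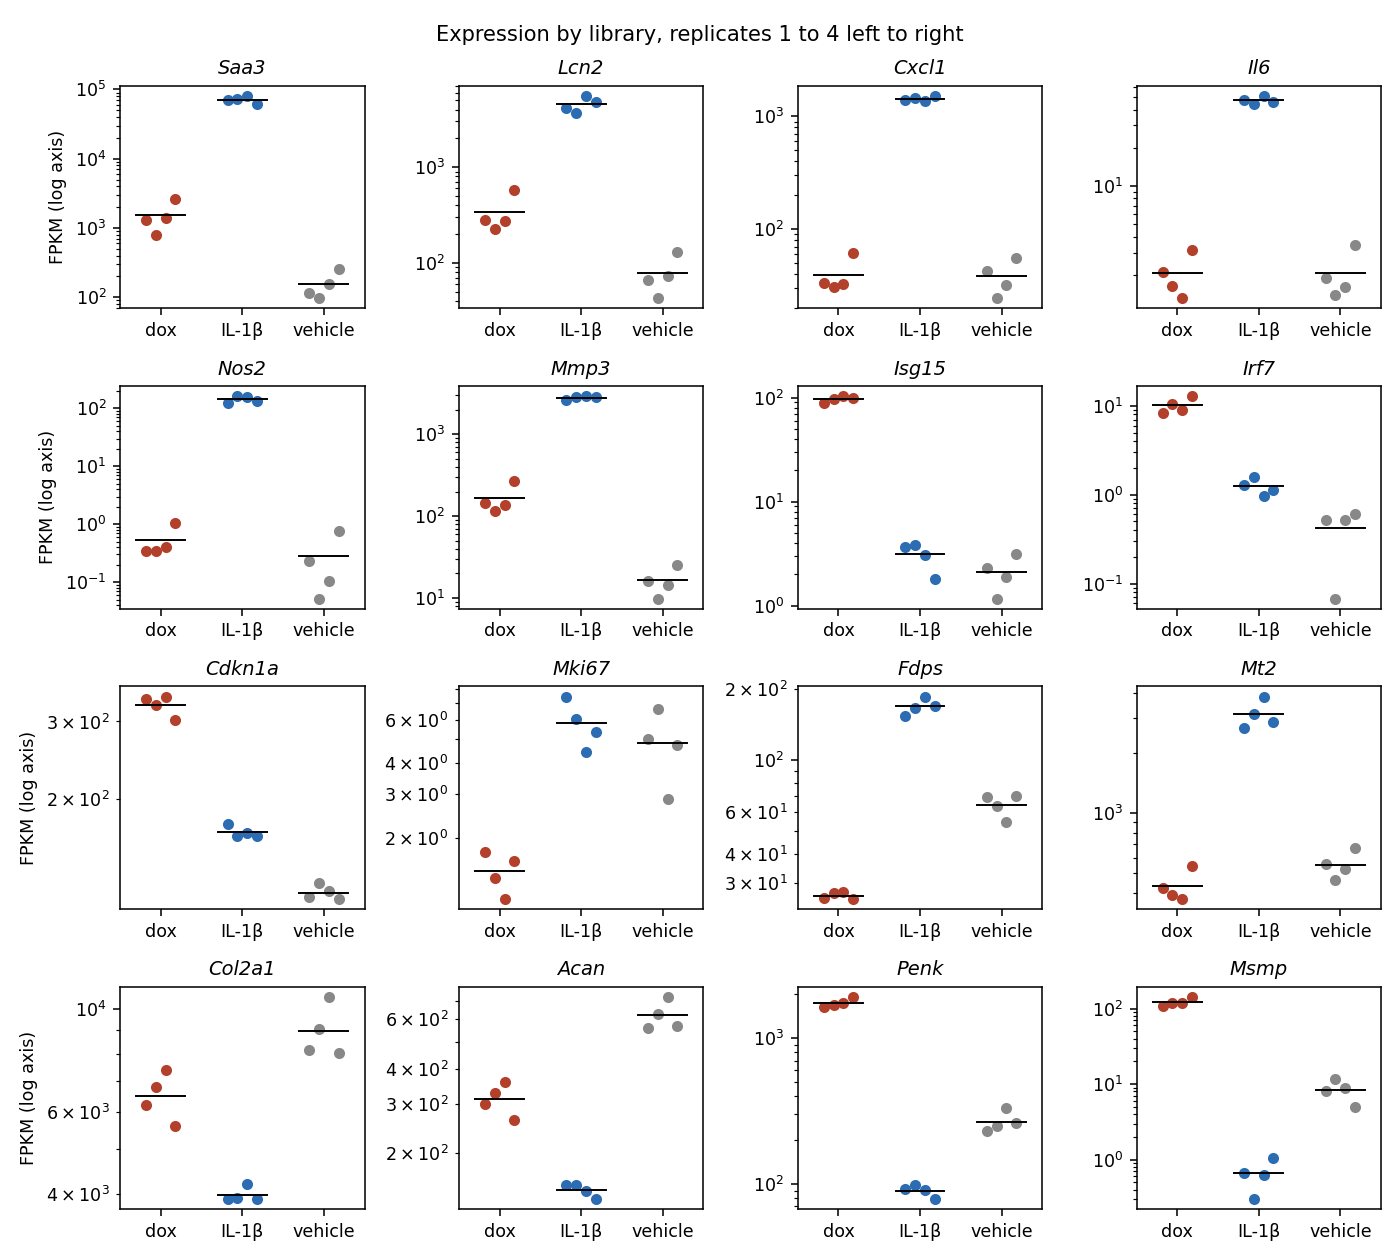
FPKM of 16 genes in each library on log axes, with doxorubicin (dox) left of IL-1β and vehicle; points are replicates 1 to 4 from left to right and bars are group means. Saa3, Lcn2, Cxcl1, Il6, Nos2 and Mmp3 are high in the 4 IL-1β libraries, Isg15, Irf7, Penk and Msmp in the 4 doxorubicin libraries, and Col2a1 and Acan are higher in doxorubicin than in IL-1β libraries, with vehicle above both.

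Interferon-stimulated genes were higher in doxorubicin cells. Of 30 tested members 28 were higher, 22 of them at least 2-fold, Isg20 was lower, a call lost with same-sum scaling, and Slfn2 did not pass; the median log2 difference was 1.84. Of these 30 members, 11, Ifit1 and Usp18 among them, passed the filter on low values only through the doxorubicin libraries, so these had to be higher there, and the count over the list is a description only. Isg15, a ubiquitin-like protein attached to other proteins after interferon, had 88.4, 96.3, 103 and 99.2 FPKM in doxorubicin, against 3.7, 3.84, 3.1 and 1.79 FPKM in IL-1β and 2.12 ± 0.817 FPKM in vehicle libraries. IL-1β and vehicle libraries overlapped, and doxorubicin libraries were 31.2-fold above IL-1β (log2 difference 4.60, SE 0.16, adjusted p = 2.47e-08). Ifit1, which binds viral RNA, had 13.3, 21.8, 16.6 and 18.9 FPKM in doxorubicin, against 0.244, 0.412, 0.345 and 0.339 FPKM in IL-1β libraries (log2 difference 3.78, adjusted p = 2.93e-08). Usp18, which removes Isg15 from proteins, was 44.9-fold higher, and Bst2, which tethers virus particles to the cell, was 5.63-fold higher.

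The promoters of Isg15 and Ifit1 are printed because they had the largest differences among the interferon lists' genes with an interferon-stimulated response element (ISRE), searched on both strands as GAAANNGAA. They come from the same RefSeq table (GRCm38.p6), at chr4:156200769-156201068 on the minus strand and chr19:34640639-34640938 on the plus strand. Capitals mark the matches, 3 in each, the first at -78 in Isg15 and at -109 in Ifit1; the first 2 overlap in each promoter.
Isg15: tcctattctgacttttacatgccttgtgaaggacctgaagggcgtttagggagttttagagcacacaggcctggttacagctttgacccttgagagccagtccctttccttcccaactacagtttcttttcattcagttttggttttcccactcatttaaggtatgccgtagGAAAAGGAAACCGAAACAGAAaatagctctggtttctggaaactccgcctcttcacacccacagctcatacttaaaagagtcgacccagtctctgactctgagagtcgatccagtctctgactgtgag
Ifit1: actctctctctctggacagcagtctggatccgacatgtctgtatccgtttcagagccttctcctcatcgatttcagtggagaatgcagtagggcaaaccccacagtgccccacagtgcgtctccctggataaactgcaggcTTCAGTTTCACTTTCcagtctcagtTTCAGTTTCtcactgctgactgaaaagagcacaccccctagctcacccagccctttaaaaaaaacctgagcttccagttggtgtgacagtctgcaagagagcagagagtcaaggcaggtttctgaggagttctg
The motif was in 10 of 24 promoters of the interferon-stimulated list (41.7%) and in 6 of 7 of the guanylate-binding and immunity-related GTPases (85.7%). Among genes at least 2-fold higher in doxorubicin 13.1% of promoters held it, among those at least 2-fold lower 7.42%, and among all tested genes 6.87%.

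Of 30 interferon signalling genes and nucleic acid sensors, 13 were higher, 5 lower and 12 did not pass, with a median of 0.14; with same-sum scaling 21 were higher and 1 lower. Stat2 and Irf9, which carry the type I interferon signal to the nucleus, were 3.07-fold and 3.49-fold higher. Irf7, the factor that amplifies type I interferon, had 8.35, 10.5, 8.94 and 12.8 FPKM in doxorubicin, against 1.29, 1.57, 0.959 and 1.14 FPKM in IL-1β and 0.427 ± 0.243 FPKM in vehicle libraries (log2 difference 2.31, SE 0.14, adjusted p = 5.96e-07). The groups did not overlap. The cytosolic RNA sensors Ifih1, Ddx58 and Dhx58 were 11.5-fold, 3.25-fold and 4.56-fold higher; Ifih1 is 1 of 2 members that passed the filter only through doxorubicin and so had to be higher. The DNA-sensing adaptor Sting1 did not pass (log2 difference -0.15, 95% interval -0.51 to 0.21), nor did the receptor chains Ifnar1 and Ifnar2. Irf1, which both NF-kB and interferon gamma induce, was lower, with 13.8, 13.5, 12.2 and 13.6 FPKM in doxorubicin, against 16.3, 18.2, 18.1 and 17.2 FPKM in IL-1β libraries (adjusted p = 0.0011), a call lost with same-sum scaling (log2 difference -0.02).

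Antigen presentation was mixed. Among 22 class I and immunoproteasome genes 10 were higher, 6 lower and 6 not passed, at a median of 0.20; with same-sum scaling 15 were higher, H2-K1 included, and 1 lower. B2m, the light chain of class I molecules, had 665, 577, 806 and 779 FPKM in doxorubicin, against 288, 301, 311 and 293 FPKM in IL-1β and 188 ± 9.35 FPKM in vehicle libraries. It was 2.37-fold higher without overlap, and the peptide transporter Tap1 and the immunoproteasome subunit Psmb8 were 2.43-fold and 2.98-fold higher. The proteasome activators Psme1 and Psme2 were among the lower ones, Psme2 not with same-sum scaling. The class I genes H2-D1, H2-K1 and H2-T23 belong to the same gene family, and reads may be shared among its members. Of 6 GTPases of the guanylate-binding and immunity-related families, which attack vacuoles that hold microbes, 5 were higher and Gbp2 was lower, a call lost with same-sum scaling and with 1 library left out in 6 of 8 cases; 3 of the 6, Irgm2 among them, passed the filter only through doxorubicin. Irgm1 was 3.61-fold higher; Irgm2 and Igtp, at 11.7-fold and 7.13-fold, overlap each other on the same strand, and their reads cannot be told apart.

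**Figure D3:**
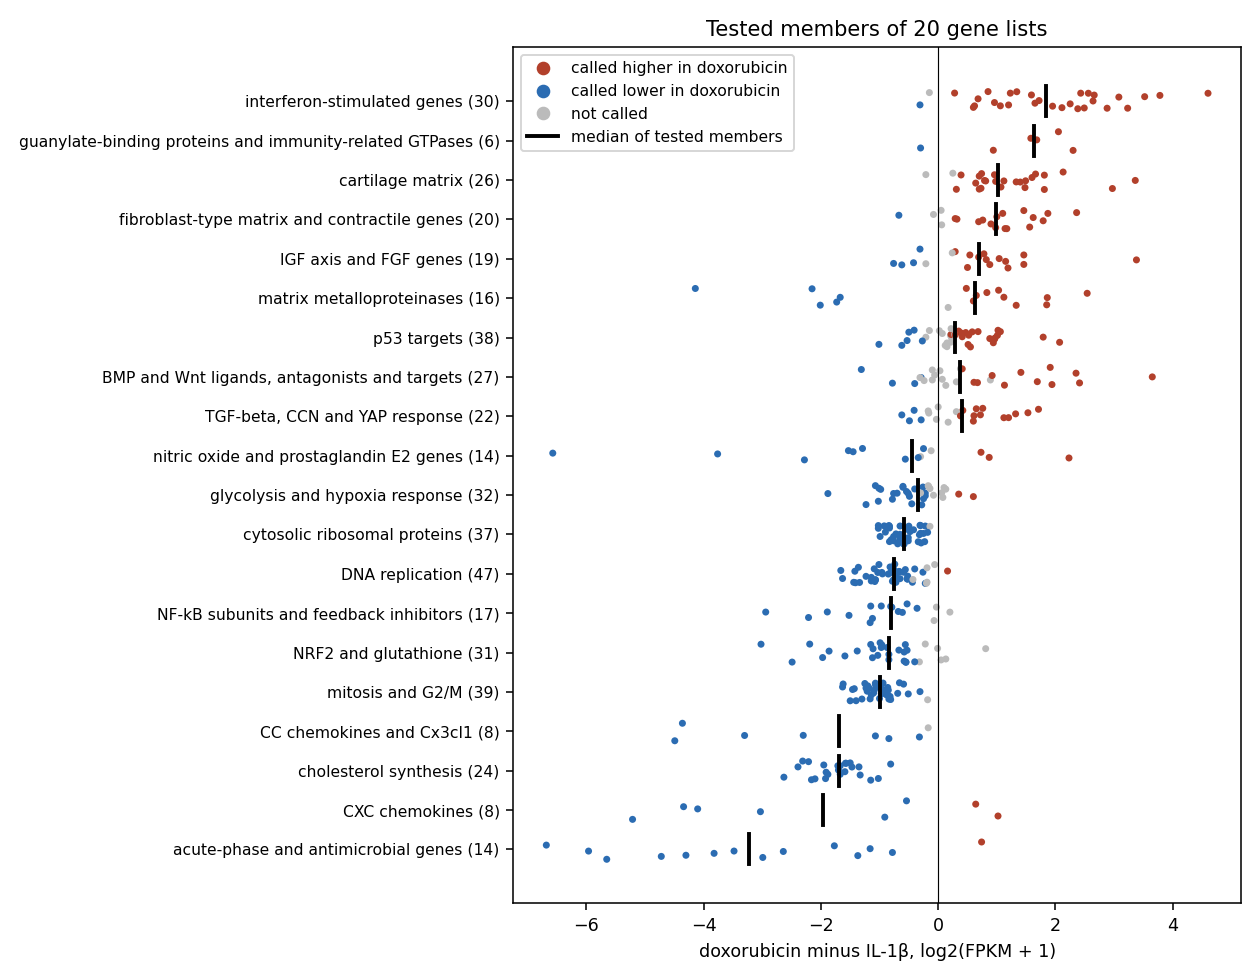
Log2 difference, doxorubicin minus IL-1β, of each tested member of 20 gene lists, 1 point per gene with the number tested in brackets; the black bar is the list's median. Interferon-stimulated genes (median 1.84) and cartilage matrix (1.02) lie to the right of 0, and acute-phase genes (-3.23), CXC chemokines (-1.97) and cholesterol synthesis (-1.69) to the left.

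Matrix metalloproteinases split by member. Mmp3, Mmp9, Mmp10, Mmp12 and Mmp13 were lower in doxorubicin, each at least 2-fold, while 8 others and the inhibitors Timp2 and Timp3 were higher; Timp1 did not pass (log2 difference 0.17, 95% interval -0.02 to 0.36), though it was higher with same-sum scaling (0.55). Mmp9, Mmp10 and Mmp12 passed the filter only through IL-1β libraries and so had to be lower, and 2 members were lower with a filter of 5 FPKM. Mmp3, or stromelysin-1, had 144, 116, 139 and 267 FPKM in doxorubicin, against 2599, 2830, 2914 and 2855 FPKM in IL-1β and 16.6 ± 6.53 FPKM in vehicle libraries. Doxorubicin libraries were above every vehicle library and 16.8-fold below IL-1β (log2 difference -4.14, SE 0.21, adjusted p = 2.28e-07). The collagenase Mmp13, which cuts type II collagen, had 314, 286, 290 and 512 FPKM in doxorubicin, against 1537, 1581, 1432 and 1523 FPKM in IL-1β and 182 ± 52.8 FPKM in vehicle libraries. Its groups did not overlap, a 4.33-fold difference (log2 difference -2.15, adjusted p = 3.53e-06). The gelatinase Mmp2 and its membrane activator Mmp14 were 1.79-fold and 1.58-fold higher. Timp3, which also inhibits aggrecanases, had 1254, 1309, 1302 and 1134 FPKM in doxorubicin, against 235, 220, 177 and 228 FPKM in IL-1β and 960 ± 54.5 FPKM in vehicle libraries. It was 5.81-fold higher, with the IL-1β group far under both others.

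The aggrecanases differed little. Adamts5 had 21.4, 19.6, 21.3 and 25 FPKM in doxorubicin, against 16, 17.2, 14.9 and 17.1 FPKM in IL-1β and 10.6 ± 1.05 FPKM in vehicle libraries, 1.34-fold higher without overlap (log2 difference 0.40, adjusted p = 0.00277). Adamts4 had 2.02, 2.12, 2.17 and 2.53 FPKM in doxorubicin, against 1.93, 2.07, 1.55 and 2.46 FPKM in IL-1β libraries. Its values overlapped and it did not pass (log2 difference 0.10, adjusted p = 0.46), although with libraries scaled to the same sum it did, at 0.43 (adjusted p = 0.0208). Of 16 ADAM, ADAMTS and related proteases 9 were higher, 4 lower and 3 not passed, and 12 higher and 1 lower with same-sum scaling; Adamts7, which can cut the matrix protein COMP, was 4.34-fold lower, and the procollagen processor Adamts2 was 3.35-fold higher.

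Cartilage matrix genes were higher in doxorubicin than in IL-1β cells, 24 of 26 tested members with 13 at least 2-fold, 0 lower and a median of 1.02. Col9a3 and Vit did not pass; Col9a3 was higher with same-sum scaling. Acan, the aggregating proteoglycan of cartilage, had 300, 327, 360 and 263 FPKM in doxorubicin, against 154, 154, 146 and 137 FPKM in IL-1β and 620 ± 74.4 FPKM in vehicle libraries. Both treated groups lay under the vehicle mean, IL-1β further, and doxorubicin was 2.11-fold above IL-1β (log2 difference 1.07, SE 0.09, adjusted p = 8.64e-06). For Col2a1, given above, the difference was 1.64-fold (log2 difference 0.70, SE 0.09, adjusted p = 0.000164), with a vehicle mean of 8971 ± 1192 FPKM. Comp, which binds collagen fibrils, was 3.53-fold higher and Cnmd, the antiangiogenic chondromodulin, 3.16-fold higher. The largest difference was in Cytl1, a small secreted protein of cartilage, with 47.1, 48.3, 46.4 and 44.9 FPKM in doxorubicin, against 3.29, 4.78, 3.28 and 3.33 FPKM in IL-1β and 17.4 ± 4.17 FPKM in vehicle libraries. Prg4, or lubricin, was 2.56-fold higher, 106, 93, 87.4 and 103 FPKM in doxorubicin, against 34.3, 43.7, 38 and 36.4 FPKM in IL-1β libraries, and both groups were above the vehicle mean of 21.1 FPKM.

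Transcription factors of the lineage moved less than the matrix. Sox9, the master regulator of chondrocytes, had 45.1, 44.9, 51.2 and 45.8 FPKM in doxorubicin, against 33.4, 33.3, 30.6 and 27.3 FPKM in IL-1β and 57.3 ± 1.62 FPKM in vehicle libraries (log2 difference 0.57, adjusted p = 0.000178). Its partner Sox6 was 1.38-fold higher, and Sox5 did not pass (95% interval of the log2 difference -0.13 to 0.23), although it was higher with same-sum scaling (0.41). Over 17 such factors 5 were higher, 2 were lower, namely Runx1 and Runx2, and 10 did not pass; with same-sum scaling 10 were higher and Runx2 was no longer lower. Of 12 hypertrophy and mineralization genes 5 were higher and 4 lower; the osteoblast factor Sp7 and the channel Panx3 were 3.15-fold and 3.4-fold lower, and the mineral-binding protein Ibsp was 2-fold higher.

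Fibroblast-type matrix and contractile genes followed the cartilage genes, with 16 of 20 higher, Postn lower and 3 not passed, at a median of 0.99. Fn1, or fibronectin, had 6302, 6807, 5375 and 5316 FPKM in doxorubicin, against 2498, 2731, 2671 and 2867 FPKM in IL-1β and 4635 ± 182 FPKM in vehicle libraries. It was 2.21-fold higher without overlap, and Col3a1, of reticular collagen, was 5.16-fold higher. Among 23 hyaluronan and glycosaminoglycan genes 13 were higher and 3 lower; the hyaluronan synthase Has2 was 2.01-fold higher and the hyaluronan-binding Tnfaip6 2.18-fold lower. In the integrin and adhesion list 14 of 21 were higher and 2 lower, with the collagen II receptor subunit Itga10 2.51-fold higher.

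Targets of p53 leaned to the doxorubicin side without moving as a block. Of 38 tested targets 20 were higher, 6 lower and 12 not passed, at a median of 0.29; with same-sum scaling 30 were higher and 1 lower. Cdkn1a, the inhibitor p21 that stops the cell cycle, had 337, 328, 342 and 302 FPKM in doxorubicin, against 175, 164, 167 and 164 FPKM in IL-1β and 122 ± 4.55 FPKM in vehicle libraries. The 3 groups were fully apart, and doxorubicin was 1.96-fold above IL-1β (log2 difference 0.96, SE 0.06, adjusted p = 7.2e-07). Ephx1, an epoxide hydrolase, was 3.51-fold higher, the T-cell costimulator Cd80 4.85-fold and the receptor Eda2r 2.2-fold. Mdm2, which degrades p53, had 70.1, 77.1, 70.9 and 77.1 FPKM in doxorubicin, against 59.4, 54.6, 43.2 and 48.8 FPKM in IL-1β libraries, a 1.43-fold difference. Of the death genes in the list, Fas and Bax were 2.05-fold and 1.55-fold lower, Bax not with same-sum scaling, Pmaip1 and Perp were higher, and Bbc3 and Tnfrsf10b did not pass. Pmaip1 passed the filter only through doxorubicin and so had to be higher, and Tnfrsf10b was higher with same-sum scaling (0.59). Fas had 31.9, 32.4, 28.8 and 32.7 FPKM in doxorubicin, against 65.3, 73, 63.8 and 55.8 FPKM in IL-1β and a vehicle mean of 15.4 FPKM. Gdf15, a stress cytokine, was 1.39-fold higher; it averaged 8.39 ± 0.709 FPKM in doxorubicin, close to the vehicle mean of 8.65 ± 1.41 FPKM.

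Among CDK inhibitors, D cyclins and RB family genes 5 of 15 were higher, 6 lower and 4 not passed, and the median of -0.12 turned to 0.20 when libraries were scaled to the same sum. Cdkn2a and Cdkn2b, the INK4 inhibitors, were 1.51-fold and 1.35-fold lower, calls that same-sum scaling ended. Ccnd1, cyclin D1, had 170, 178, 144 and 144 FPKM in doxorubicin, against 23.4, 19.3, 22.7 and 25 FPKM in IL-1β and 51.1 ± 5.11 FPKM in vehicle libraries. The doxorubicin libraries were 7.05-fold above IL-1β, with the vehicle mean between (log2 difference 2.76, SE 0.10, adjusted p = 2.93e-08). Ccnd2 was 2.53-fold higher.

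Genes of dividing cells were lower in doxorubicin. In the replication list 41 of 47 were lower, 16 at least 2-fold, E2f1 was higher, a call lost with 1 library left out in 7 of 8 cases, and 5 did not pass (median -0.76); in the list of mitosis and G2/M 38 of 39 were lower, 20 at least 2-fold, 0 higher, and Cdc25b did not pass (the median was close to that 2-fold limit). Mki67, which coats mitotic chromosomes, had 1.75, 1.37, 1.13 and 1.61 FPKM in doxorubicin, against 7.45, 6.04, 4.46 and 5.33 FPKM in IL-1β and 4.81 ± 1.54 FPKM in vehicle libraries. IL-1β and vehicle libraries overlapped, and doxorubicin libraries were 3.97-fold lower (log2 difference -1.46, SE 0.14, adjusted p = 1.68e-05). Top2a, the topoisomerase that doxorubicin traps, had 20.2, 18, 15.2 and 18.1 FPKM in doxorubicin, against 42.6, 40.3, 33.5 and 38.2 FPKM in IL-1β libraries (2.16-fold lower, adjusted p = 1.19e-05). Tyms, the thymidylate synthase, was 3.47-fold lower, and Mcm5 and Mcm3, of the replicative helicase, 2.85-fold and 2.69-fold lower. In bulk samples, fewer dividing cells and less message in each cannot be told apart.

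The promoters of Mcm5 and Mcm3 are printed as the replication and mitosis genes with the largest differences whose single listed promoter held an E2F motif, searched on both strands as TTTCCCGC or TTTGGCGC. They lie at chr8:75109259-75109558 on the plus and chr1:20820263-20820562 on the minus strand (RefSeq, GRCm38.p6), and capitals mark the match at -149 in Mcm5 and the matches that begin at 20 and 39 in Mcm3.
Mcm5: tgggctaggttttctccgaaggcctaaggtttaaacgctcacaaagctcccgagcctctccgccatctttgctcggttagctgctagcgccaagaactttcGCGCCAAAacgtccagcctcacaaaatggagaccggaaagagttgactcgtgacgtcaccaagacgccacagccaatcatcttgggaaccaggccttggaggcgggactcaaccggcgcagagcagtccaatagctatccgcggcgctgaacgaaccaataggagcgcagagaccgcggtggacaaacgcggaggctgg
Mcm3: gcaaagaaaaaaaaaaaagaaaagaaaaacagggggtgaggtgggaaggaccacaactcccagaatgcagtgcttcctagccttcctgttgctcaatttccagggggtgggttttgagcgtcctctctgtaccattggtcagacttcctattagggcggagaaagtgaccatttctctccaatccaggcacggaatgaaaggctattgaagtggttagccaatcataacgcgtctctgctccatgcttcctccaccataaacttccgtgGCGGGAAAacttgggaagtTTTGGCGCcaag
The motif was in 12 of 44 promoters of the replication list (27.3%) and in 0 of 34 promoters of the mitosis list. It was in 4.35% of the promoters of genes at least 2-fold lower in doxorubicin, 0.677% of those at least 2-fold higher and 2.92% of those of all tested genes.

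Nuclear lamina and HMG chromatin genes, several of which are known to fall in senescent cells, had 14 of 20 members lower, 0 higher and 6 not passed (median -0.58). With same-sum scaling 9 were lower and 3 higher. Lmnb1, of the inner nuclear lamina, had 3.64, 4.22, 4.43 and 3.36 FPKM in doxorubicin, against 13.8, 11.6, 12.3 and 13.2 FPKM in IL-1β and 22.7 ± 2.22 FPKM in vehicle libraries. The 3 groups did not overlap, with doxorubicin lowest and vehicle highest, and it was 3.25-fold lower in doxorubicin than in IL-1β (log2 difference -1.48, adjusted p = 8.84e-07). Hmgb2, a DNA-bending protein, was 4.42-fold lower, while Lmna did not pass (95% interval -0.34 to 0.35) but was higher with same-sum scaling (0.38). Among 33 DNA repair genes 16 were lower, 0 higher and 17 not passed, and the median of -0.28 became 0.03 when libraries were scaled to the same sum, with 7 higher and 9 lower; Rad54l and Exo1, of homologous recombination, were 3.28-fold and 3.18-fold lower, and both passed the filter only through IL-1β libraries and so had to be lower.

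Cholesterol synthesis was lower in doxorubicin throughout the pathway. All 24 tested members were lower, 23 of them at least 2-fold, at a median of -1.69. Fdps, which makes farnesyl diphosphate, had 25.8, 27.2, 27.4 and 25.7 FPKM in doxorubicin, against 154, 166, 186 and 170 FPKM in IL-1β and 64.6 ± 7.27 FPKM in vehicle libraries. The vehicle mean stood between the groups, and the difference was 6.38-fold (log2 difference -2.63, SE 0.07, adjusted p = 4.02e-09). The synthase Hmgcs1 was 3.83-fold lower and the epoxidase Sqle 3.96-fold, and Srebf2, the factor that drives the pathway, was 2.62-fold lower. In the oxysterol and efflux list 6 of 12 were higher, 3 lower and 3 not passed: the efflux pump Abca1 was 2.18-fold higher, whereas Ch25h and Cyp7b1, which make and break 25-hydroxycholesterol, were 15.7-fold and 8.57-fold lower.

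NRF2 and glutathione genes were lower, 25 of 31 with 0 higher and 6 not passed (median -0.84). Fth1, the ferritin heavy chain that stores iron, had 1116, 1344, 1280 and 1545 FPKM in doxorubicin, against 5486, 4073, 6099 and 5160 FPKM in IL-1β and 833 ± 48.5 FPKM in vehicle libraries. It was 3.94-fold lower without overlap (adjusted p = 1.7e-06). The mitochondrial superoxide dismutase Sod2, also an NF-kB target, was 8.53-fold lower, the cystine importer Slc7a11 4.97-fold and the quinone reductase Nqo1 2.67-fold. Catalase, Cat, did not pass (95% interval -0.09 to 0.18) but was higher with same-sum scaling (0.42). Of 15 zinc and metallothionein genes 5 were lower, 0 higher and 10 not passed, and the median of -0.02 was 0.35 with libraries scaled to the same sum, with 9 higher and 4 lower. The metal-binding Mt2 had 421, 391, 372 and 547 FPKM in doxorubicin, against 2664, 3154, 3852 and 2877 FPKM in IL-1β and 553 ± 88.7 FPKM in vehicle libraries. The zinc importer Slc39a8 had 4.59, 4.03, 3.43 and 4.5 FPKM in doxorubicin, against 86.9, 81.4, 80.3 and 79.4 FPKM in IL-1β and 5.67 ± 0.819 FPKM in vehicle libraries. For Mt2 and Slc39a8 doxorubicin cells lay near vehicle, 7.25-fold and 19.8-fold below IL-1β cells.

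**Figure D4:**
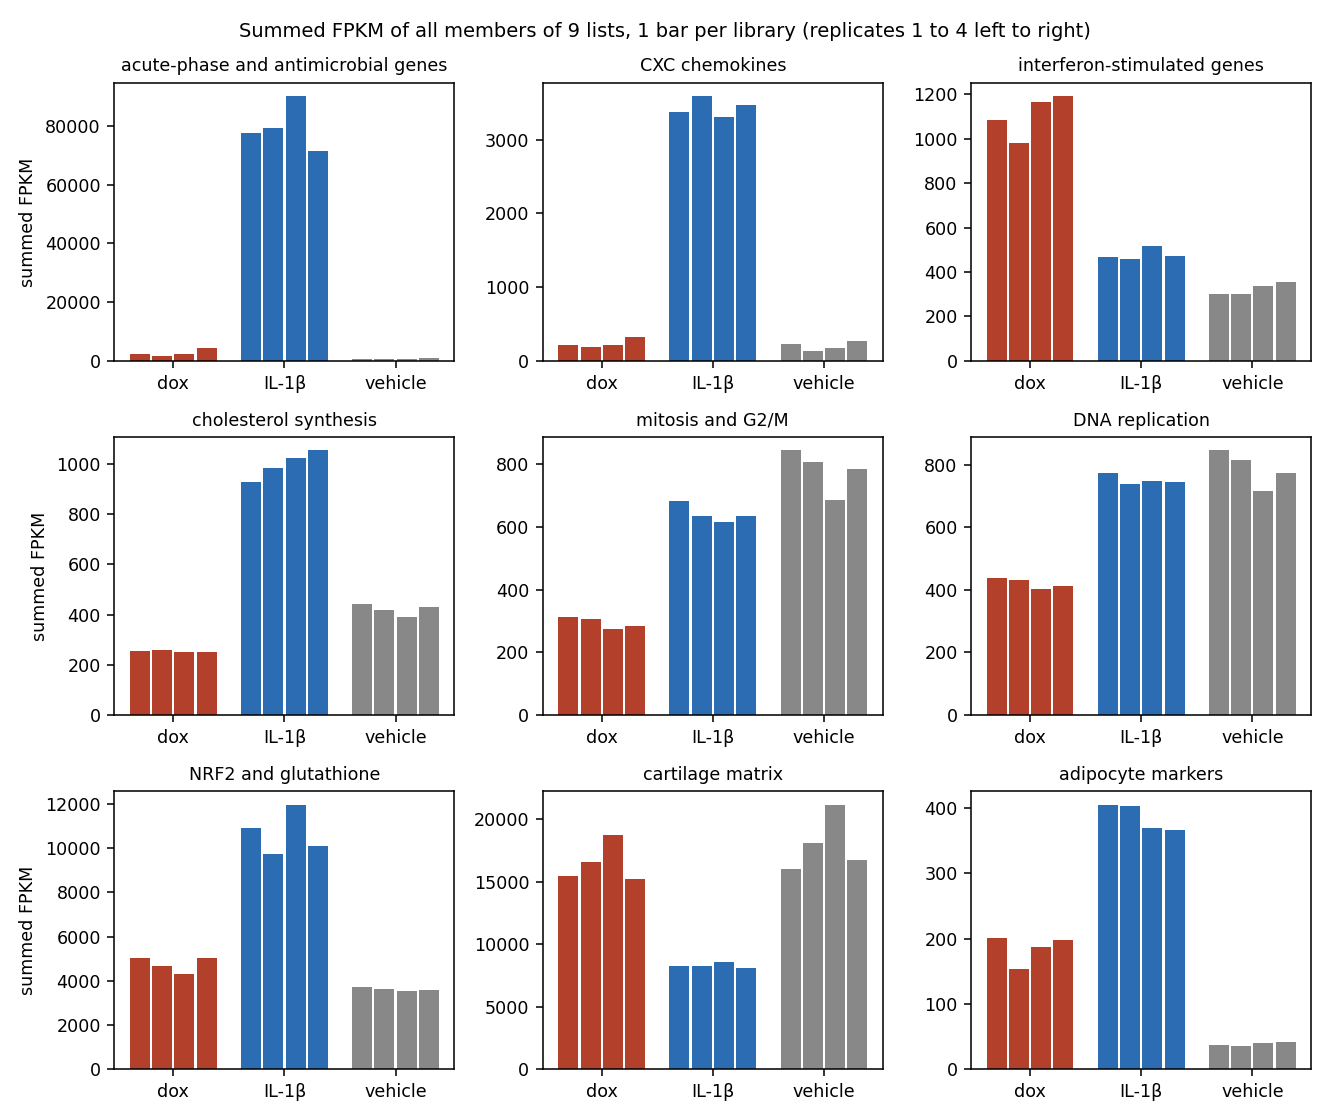
Summed FPKM over all members of 9 lists, 1 bar per library with replicates 1 to 4 from left to right, in doxorubicin (dox), IL-1β and vehicle. Acute-phase genes add up to 1754 to 4246 FPKM in doxorubicin and 71395 to 90066 in IL-1β libraries, cholesterol synthesis to 251 to 260 and 927 to 1053, interferon-stimulated genes to 981 to 1191 and 457 to 516.

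Genes of translation and energy supply were modestly lower. Of 37 cytosolic ribosomal proteins 36 were lower, 2 at least 2-fold, 0 higher, and Rpl10 did not pass (median -0.59), but with libraries scaled to the same sum 19 were lower and 3 higher, Rpl10 among these. Rps3 had 1222, 1087, 1120 and 1015 FPKM in doxorubicin, against 2403, 2060, 2197 and 2154 FPKM in IL-1β and 1583 ± 38.8 FPKM in vehicle libraries, 1.98-fold lower. Of 33 nuclear-encoded respiratory chain genes 23 were lower and 0 higher, yet the median of -0.36 became 0.02 with libraries scaled to the same sum, with 7 higher and 6 lower. Glycolysis and hypoxia genes had 21 of 32 lower and 2 higher, and their median of -0.35 became 0.01 under that scaling, with 8 higher and 9 lower; Ldha, the lactate dehydrogenase, was 2.03-fold lower. Aminoacyl-tRNA synthetases had 11 of 18 lower and 0 higher with a median of -0.21, which turned to 0.17 with 11 higher and 1 lower under that scaling, and the calls of Farsa and Farsb were then lost (adjusted p = 0.0757 and 0.39). ATF4 and amino acid genes had 16 of 24 lower and 4 higher at a median of -0.37, 0.01 with 8 higher and 6 lower under that scaling; Shmt2, of the mitochondrial one-carbon cycle, was 2.01-fold lower and the hormone Fgf21 3.27-fold higher. Endoplasmic reticulum folding genes had 7 of 25 lower and 5 higher at a median of -0.02, 0.36 with 17 higher and 1 lower under that scaling, in which the chaperone Hspa5 lost its call (log2 difference -0.49, then -0.12, adjusted p = 0.225).

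Exon length moved with the direction of the difference. With the genes cut into 5 bins by exon sum, in the shortest bin, 55 to 2134 bases, 1068 were lower and 392 higher (median log2 difference -0.23), and in the longest bin, 7402 to 41324 bases, 403 were lower and 726 higher (median 0.08). Ribosomal proteins had a median exon length of 2015 bases and respiratory chain genes of 2101 bases, both in the shortest bin, so their medians of -0.59 and -0.36 stand beside -0.23 for all genes of like length. Cholesterol synthesis genes, at 4409 bases, lay in the middle bin, where the median of all genes was -0.03. The part of length in these results was not tested.

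**Figure D5:**
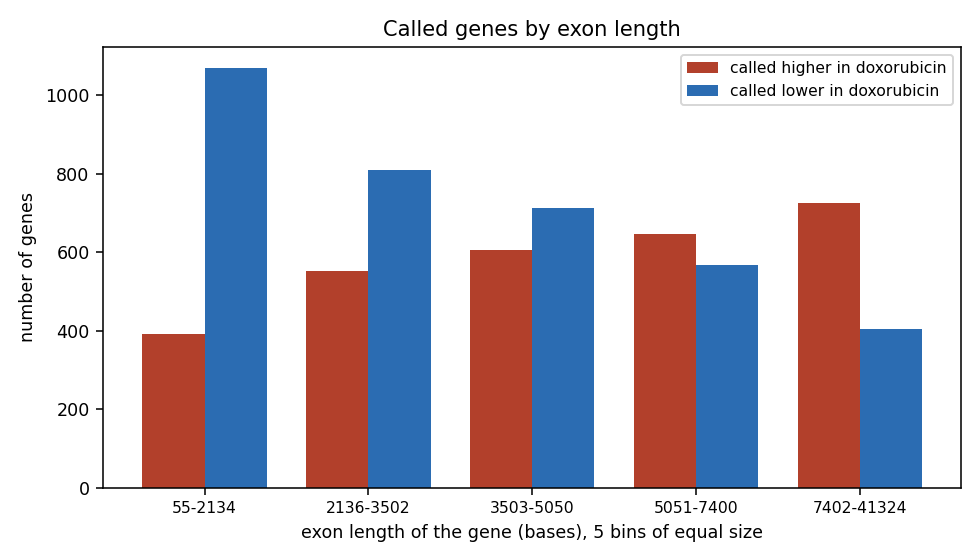
Number of genes called higher (red) and lower (blue) in doxorubicin than in IL-1β libraries, in 5 bins of equal size by the summed exon length of the gene. Lower genes outnumber higher ones 1068 to 392 in the shortest bin, and higher ones outnumber lower ones 726 to 403 in the longest.

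In the growth factor lists, which also hold receptors, binding proteins and antagonists, more members were higher than lower in doxorubicin. In the IGF and FGF list 13 of 19 were higher, 4 lower and 2 not passed (median 0.69). Its tested ligands went both ways: Igf1, Igf2 and Fgf18 were higher, Fgf7 was lower and Fgf2 did not pass. Fgf18 passed the filter only through doxorubicin and so had to be higher. Igfbp5, which binds insulin-like growth factors, had 235, 274, 257 and 230 FPKM in doxorubicin, against 21.1, 21.2, 24.5 and 25 FPKM in IL-1β and 216 ± 19.3 FPKM in vehicle libraries. Doxorubicin lay near vehicle and 10.8-fold above IL-1β. The ligand Igf2 was 2.23-fold higher. Among 27 BMP and Wnt genes 12 were higher, 4 lower and 11 not passed (19 higher and 2 lower with same-sum scaling). Of these, Chrdl1 and Gdf6 passed the filter only through doxorubicin and so had to be higher. The secreted antagonists Dkk3, Frzb, Sfrp2 and Wif1 were 13.3-fold, 8.16-fold, 3.46-fold and 3.2-fold higher. Among 22 TGF-beta, CCN and YAP genes 12 were higher and 4 lower, and 18 and 0 with same-sum scaling; the receptor Tgfbr2 was 2.97-fold higher and the matricellular Ccn2 3.28-fold, at 656 ± 70.1 FPKM in doxorubicin, 200 ± 13.2 in IL-1β and 659 ± 3.02 in vehicle libraries.

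AP-1 and C/EBP factors had 10 of 17 lower and 3 higher (median -0.43); Cebpb, a factor of the acute-phase response, was 4.41-fold lower. Its relative Cebpd had 20, 14.9, 0.522 and 26.1 FPKM in doxorubicin, against 68.8, 60.6, 67 and 62 FPKM in IL-1β libraries. The third doxorubicin library stood apart, and without it the log2 difference was -1.65 instead of -2.60. Of 24 BCL2 and cell death genes 10 were lower and 5 higher, with a median of -0.23 that turned to 0.13 when libraries were scaled to the same sum, with 8 higher and 6 lower; the linker Bid and the inflammatory caspase Casp4 were 2.83-fold and 2.94-fold lower. Of 39 lysosomal genes 12 were higher and 12 lower, but 26 and 2 with same-sum scaling, with the cathepsin Ctsd 1.8-fold higher and the galactosidase Gla 1.95-fold lower.

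Markers of other cell types moved in part with the groups. Neutrophil markers summed to 3.24 to 6.82 FPKM in doxorubicin, 112 to 143 in IL-1β and 0.202 to 1.93 in vehicle libraries, nearly all of it Camp and S100a8, 2 of the 10; S100a9, Csf3r, Elane, Ngp and Retnlg stayed at or below 0.461 FPKM in the 8 libraries. Macrophage markers summed to 22 to 26.5 FPKM in doxorubicin and 31.4 to 36.7 in IL-1β libraries; 4 of 15 were tested, 1 higher and 2 lower. Adipocyte markers went both ways, and summed to 154 to 201 FPKM in doxorubicin, 367 to 405 in IL-1β and 35.7 to 41.3 in vehicle libraries. Fabp4, a fatty acid carrier, made most of this sum and was 2.61-fold lower, whereas the hormone Adipoq had 14.1, 9.58, 15.5 and 16.3 FPKM in doxorubicin, against at most 0.0834 FPKM in IL-1β libraries. Cfd, or adipsin, had 9.39, 7.81, 8.8 and 7.35 FPKM in doxorubicin libraries and was listed at 0 in the 4 IL-1β libraries; these and Plin1, which coats lipid droplets, passed the filter only through doxorubicin. Of synovial fibroblast markers 4 of 5 tested were higher and 1 lower, with sums of 187 to 255 and 128 to 157 FPKM in doxorubicin and IL-1β libraries, and of tendon markers 3 of 5 were higher, with 670 to 696 and 265 to 280 FPKM, most of it Fmod. Osteoblast markers summed to 932 to 1052 and 421 to 505 FPKM, most of it Col1a1, and 4 of 7 tested were lower. Osteoclast markers had 2 of 3 lower, muscle markers 3 of 4 higher, keratinocyte markers 2 of 3 higher, endothelial markers 1 of 1 higher, and 0 of 7 erythroid markers were tested. The part of such cells in the results was not tested.

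Several of the largest differences lay outside these pathways. Msmp, a secreted protein of the microseminoprotein family (chr4:43583216-43584494, minus strand), had 108, 119, 118 and 143 FPKM in doxorubicin, against 0.672, 0.298, 0.614 and 1.05 FPKM in IL-1β and 8.42 ± 2.77 FPKM in vehicle libraries. The 3 groups did not overlap, and the log2 difference of 6.22 (SE 0.14, adjusted p = 1.66e-09) was the largest rise among called genes with a mean of at least 10 FPKM. Penk, the precursor of the enkephalin opioids (chr4:4133531-4138819, minus strand), had 1621, 1682, 1750 and 1916 FPKM in doxorubicin, against 91.5, 98.1, 91.3 and 78.5 FPKM in IL-1β and 267 ± 43.9 FPKM in vehicle libraries. It was 19.4-fold higher, with vehicle between the groups (log2 difference 4.26, adjusted p = 6.75e-10). Cd248, a stromal membrane protein, and Slurp1, a secreted Ly6 protein, were 15.2-fold and 17.8-fold higher, and the imprinted Mest was 2.22-fold higher. On the other side, Vnn1 and Vnn3, pantetheinases that release cysteamine, were 45.6-fold and 309-fold lower; Vnn3 passed the filter only through IL-1β. Vnn1 had 4.87, 4.36, 6.19 and 5.13 FPKM in doxorubicin, against 237, 252, 213 and 235 FPKM in IL-1β and 1.42 ± 0.4 FPKM in vehicle libraries. The chitinase-like Chil1 was 31.6-fold lower, the antimicrobial Camp 26.9-fold and U90926 26.3-fold.

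Set against the vehicle level, the differences arose from both sides. Of the 493 genes at least 2-fold higher in doxorubicin, the vehicle mean lay between the groups for 335, above both for 46 and below both for 112; where it lay between, it was nearer to doxorubicin for 141 and nearer to IL-1β for 194. Of the 500 genes at least 2-fold lower, the vehicle mean lay between the groups for 248, above both for 67 and below both for 185, and where between, it was nearer to doxorubicin for 141 and nearer to IL-1β for 107. These are counts of positions of means, with no test against vehicle, which shared its exposure time with IL-1β and not with doxorubicin.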

How the data were processed

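Polyadenylated RNA was sequenced with a stranded kit, per the labels' protocols, and the submitters' processing notes name Trimmomatic, STAR and GRCm38 without versions. The authors deposited gene-level FPKM values; the tool and annotation behind them are not given in the sources used here. FPKM values are not counts: only 62.1% to 65.3% of low values came within 0.1 of whole reads, so no count test was run and depth is an estimate. Coordinates and exon lengths were taken from GENCODE M21, in which 55190 of 55450 identifiers matched. Genes that reached 1 FPKM in 4 or more of the 8 libraries entered limma 3.58.1 (R 4.3.3) on log2(FPKM + 1) with a mean-variance trend and no further scaling, with Benjamini-Hochberg adjustment over all 12545. Log2 differences and their 95% intervals are on that scale, which understates low genes, and folds are ratios of mean FPKM. The fit was tested on simulated data. Genes were named by rule: 17 fixed genes, the 12 largest differences per direction among called genes without overlap and with at least 10 FPKM, up to 3 per list, and the 5 most abundant per direction past 2-fold; other list members are named with their values and were chosen after these were seen. The members and lists were chosen with earlier results of these data known. Alternatives covered the pseudocount, the filter, 3 scalings, all 16 libraries in 1 fit, a replicate block and each library left out. Close copies (Saa1 and Saa2, Gsta1 and Gsta2, Ifit3 and Ifit3b) and the related H2 genes are uncertain. So are genes that overlap on a strand (Irgm2 and Igtp, Ctsd and Igf2 with predicted coding genes, Rps3 with a small nucleolar RNA gene). Some list members counted in the totals are not reported by name here.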

Additional observations from a re-analysis of the deposited data

Results flagged for a closer look

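In groups of 4 libraries, a value was singled out where its gap to the nearest of the others, over the range of the group, was above Dixon's 95% limit, and chance alone marks about 1 in 20 groups. Over the named genes 21 of 310 groups had such a value.

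Doxorubicin replicate 1 was above the other three in Fgfrl1 (64.4 FPKM, others 34.8 to 37.1). Doxorubicin replicate 2 was below the other three in Cd14 (4.63 FPKM, others 5.87 to 5.93) and H2-T23 (20.8 FPKM, others 31.2 to 33.3). Doxorubicin replicate 3 was above the other three in Dnajb9 (26.9 FPKM, others 21.1 to 21.7), Frzb (18 FPKM, others 11.1 to 11.7) and Sox9 (51.2 FPKM, others 44.9 to 45.8). Doxorubicin replicate 3 was below the other three in Masp1 (51 FPKM, others 62.6 to 63.4). Doxorubicin replicate 4 was above the other three in Cxcl1 (61.7 FPKM, others 30.8 to 33), Lcn2 (580 FPKM, others 226 to 279), Mmp13 (512 FPKM, others 286 to 314), Nos2 (1.06 FPKM, others 0.345 to 0.404) and Saa1 (4.64 FPKM, others 1.48 to 1.79). Doxorubicin replicate 4 was below the other three in Sp7 (0.813 FPKM, others 1.07 to 1.11).

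IL-1β replicate 1 was above the other three in Tap1 (3.65 FPKM, others 2.61 to 2.76). IL-1β replicate 2 was above the other three in Ccl20 (77.9 FPKM, others 58 to 61.3), Cytl1 (4.78 FPKM, others 3.28 to 3.33), Rpl18 (952 FPKM, others 411 to 459) and Slurp1 (1.78 FPKM, others 0.834 to 0.959). IL-1β replicate 2 was below the other three in Farsa (32.8 FPKM, others 34.1 to 34.4). IL-1β replicate 3 was above the other three in Col2a1 (4191 FPKM, others 3889 to 3914). IL-1β replicate 4 was below the other three in Rps23 (1598 FPKM, others 1771 to 1801).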

How the results depend on the processing

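No gene named in the results above that passed under 2 settings had opposite signs under them. Other list members did: Fosl2, Hars, Kars, Lamp1, Pfkl, Rars, Rpl4, Rplp0 and Sars were called lower, but higher with same-sum scaling. The balance of higher and lower genes also turned: with quantile normalization 3307 were higher and 3195 lower. Same-sum scaling turned lists such as the aminoacyl-tRNA synthetases, with 11 higher and 1 lower, and endoplasmic reticulum folding, with 17 and 1. The numbers of genes higher and lower in doxorubicin stayed within 1.5 times of 2920 and 3560, and the numbers past 2-fold within 1.5 times of 493 and 500, except under 2 settings. With a pseudocount of 0.1, 743 genes were at least 2-fold higher, since low genes are then less compressed. With libraries scaled to the same sum, 6606 genes were higher and 1465 lower, and 1213 and 314 passed 2-fold. Leaving out 1 library at a time gave 2616 to 2800 higher and 3190 to 3489 lower genes, and 486 to 508 and 493 to 535 past 2-fold. Without any filter Cebpd no longer passed (adjusted p = 0.0558), and without the third doxorubicin library it did (log2 difference -1.65, adjusted p = 4.15e-05). Same-numbered libraries did not deviate together over all tested genes (correlations 0.0457, 0.0204, -0.0227 and 0.0425, with 3 of 8 libraries closest to their own number). This cannot settle whether the numbers pair them for some genes. Cartilage matrix genes, for instance, summed highest in replicate 3 of doxorubicin (18741 FPKM), IL-1β (8607 FPKM) and vehicle libraries (21141 FPKM). With the replicate block 2805 genes were higher and 3496 lower, and 495 and 502 passed 2-fold. The precision rests on 4 libraries a group and on depths that are only estimated.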

Other observations

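Small nucleolar RNA genes, which guide the chemical modification of ribosomal RNA and mostly lie inside introns of other genes, were lower in doxorubicin. Of 84 tested, 46 were lower, 4 were higher and 34 did not pass in limma at an adjusted p under 0.05, with a median log2 difference of -0.68; 22 were at least 2-fold lower and 2 at least 2-fold higher. Snord104 averaged 19.6 FPKM in doxorubicin, against 44.7 FPKM in IL-1β and 23.7 FPKM in vehicle libraries (log2 difference -1.14). Snora68 averaged 2.58 FPKM in doxorubicin, against 9.24 FPKM in IL-1β and 6.13 FPKM in vehicle libraries (log2 difference -1.53). Their exons span 64 to 246 bases, the library was made from polyadenylated RNA, and the part of either in these values was not tested. They belong to the shortest of the 5 bins of exon length, in which the median difference of all genes was -0.23.

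In the mitosis list, 22 of the 38 lower genes had their highest doxorubicin value in replicate 1. The same held for 2977 of all 12545 tested genes (23.7%) and for 155 of the 500 genes at least 2-fold lower (31%).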
